A study of Homo sapiens with 8 samples.

Results

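The keratin genes examined were KRT5, KRT7, KRT8, KRT10, KRT15, KRT17, KRT18, KRT19, KRT80 and KRT81. These 10 genes were taken by symbol from the 55 type I and type II keratin genes among 58828 genes in the count tables. RNA-seq was available for 8 libraries of 22RV1 and DU145, both established human prostate cancer cell lines, with 1 library for each of 8 conditions. The cells held a lentiviral vector that was empty or that expressed PAGE4 under doxycycline, PAGE4 being an intrinsically disordered cancer/testis protein linked to stress responses, and doxycycline was given to all of them. Each of these cultures was treated with PBS or with 200 mM H2O2 for 12 h, as a source of reactive oxygen species. The dose is as the labels and methods state it, but the study gives lower doses for other experiments of the same length, so it is uncertain. PAGE4 and vector cells are separately transduced, puromycin-selected cultures, so the effect of the construct and a difference between cultures cannot be told apart.

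Keratins are the intermediate filament proteins of epithelial cells. A type I (acidic) keratin pairs with a type II (basic) keratin to build the filament, which is anchored at desmosomes and hemidesmosomes and gives the cell mechanical strength. In the prostate, KRT8 (type II) and KRT18 (type I) are typical of luminal cells, and KRT5 (type II), with its type I partner KRT14, is typical of basal cells. KRT8 and KRT18 filaments are also known to be reorganised and phosphorylated in stressed simple epithelia.

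The type II genes KRT80 (chr12:52168996-52192014, minus strand), KRT7 (chr12:52232520-52252186, plus strand), KRT81 (chr12:52285913-52291534, minus strand), KRT5 (chr12:52514575-52520530, minus strand) and KRT8 (chr12:52897187-52949954, minus strand) lie in the type II cluster of GRCh38 (GENCODE 44). The type I gene KRT18 (chr12:52948871-52952906, plus strand) lies beside KRT8, and the remaining type I genes lie in the cluster on chromosome 17. These are KRT10 (chr17:40818117-40822614), KRT15 (chr17:41513745-41522529), KRT19 (chr17:41523617-41528308) and KRT17 (chr17:41619442-41624842), all on the minus strand. Exons of other genes cover 7.85% of the exonic bases of KRT7 (KRT7-AS and KRT87P, on the other strand) and 10.2% of those of KRT17, and none of KRT5, KRT19, KRT80 or KRT81. Reads at 8 annotated KRT17 pseudogenes outnumbered those at KRT17 itself in 4 of the 8 libraries, so its low counts are uncertain.

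Total counts ranged from 25482984 to 43310401 per library, and in each of the 4 pairs the H2O2 library was shallower than its PBS library. PAGE4 had 1001 to 1489 reads in the 4 libraries labelled PAGE4 and 0 to 1 in the 4 vector libraries. Of 9 testable basal and DU145 markers, 7 were higher in DU145, such as the receptor tyrosine kinase AXL (0.249 CPM, counts per 1000000 reads, in 22RV1 and 319 CPM in DU145). LGALS1 was lower in DU145 (102.6 and 75.2 CPM, adjusted p = 0.00398) and CD44 did not pass (146.5 and 126 CPM, adjusted p = 0.0797). All 9 testable luminal prostate markers were lower in DU145, a direction that the count minimum favours for those near 0 there. Of all genes tested, 29.9% were called higher and 33.1% lower in DU145. Both lists were chosen with earlier results of these data known, and the first was made of DU145 markers. These counts therefore describe the lines and test nothing. The basal regulator TP63 was near 0 in both lines, at up to 0.181 CPM, as was the luminal marker TRPM8, at up to 0.280 CPM.

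Library totals for CPM were scaled by TMM, which corrects them for differences in composition. Differences are log2 fold changes with standard errors (SE), from edgeR's quasi-likelihood test, and a gene was called at an adjusted p (Benjamini-Hochberg, over the 20136 genes tested) under 0.05. Pairs of libraries stood in for replicates, so the p-values measure the spread among these cultures only. Genes needed a mean of 10 reads over the 8 libraries. Of the 10 keratins, 8 passed, and KRT5 and KRT17 did not. KRT81 passed only through DU145, with a mean of 7.50 reads in 22RV1, and KRT80 averaged 18.5 reads in 22RV1.

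The lines differed in which type II keratins they expressed. In 22RV1, nearly all keratin signal came from KRT8, KRT18 and KRT19, while DU145 cells added KRT7, a type II keratin of ductal and glandular epithelia, and KRT80, a type II keratin of many epithelia, to the same 3 genes. Among the 8 tested keratins, 4 were higher in DU145 (KRT7, KRT10, KRT80 and KRT81) and 2 were lower (KRT8 and KRT18). Of all genes tested, 29.9% were called higher and 33.1% lower in DU145, so a call between the lines was common. KRT81 could only have passed the count minimum through DU145, and its call adds nothing to that count. In bulk RNA, more RNA per cell and more cells that express a gene cannot be told apart.

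In 22RV1, KRT7 stood at 14.3 CPM (PBS) and 8.62 CPM (H2O2) in vector cells and at 23.8 CPM (PBS) and 17.7 CPM (H2O2) in PAGE4 cells. In DU145 the same 4 conditions gave 786, 750.1, 1087 and 719 CPM. The lines did not overlap, and KRT7 averaged 51.9 times more CPM in DU145 (log2 fold change 5.76, SE 0.21, adjusted p = 8.46e-07). The contrast was steeper for KRT80, which had only 10 to 36 reads per 22RV1 library (0.248 to 0.929 CPM). In DU145 it reached 261 CPM in vector cells with PBS, 243 with H2O2, 305 in PAGE4 cells with PBS and 225 with H2O2 (log2 fold change 9.07, SE 0.36, adjusted p = 1.18e-06).

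KRT81, a type II hair keratin, had 5 to 11 reads in each 22RV1 library. In DU145 it had 853 and 838 reads in vector cells with PBS and H2O2 and 171 and 153 in PAGE4 cells. Every DU145 library was thus above every 22RV1 library (log2 fold change 6.37, SE 0.51, adjusted p = 2.81e-05), and the DU145 libraries fell into a high vector pair and a low PAGE4 pair.

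KRT81 has a close relative in the neighbouring hair keratin gene KRT86, and 29.4% of the 100-base windows of its canonical transcript also occur in KRT86. Over 1457 aligned coding bases the genes share 93.6%, with a longest identical run of 605 bases.

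KRT10, a type I keratin of suprabasal epidermis, was weakly expressed in both lines. Its level in 22RV1 was 2.79, 5.55, 2.01 and 3.53 CPM in vector PBS, vector H2O2, PAGE4 PBS and PAGE4 H2O2 cells, against 10.6, 14.8, 12.6 and 18.3 CPM in DU145 (log2 fold change 2.08, SE 0.24, adjusted p = 0.000193).

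The luminal pair KRT8 and KRT18 was lower in DU145, by much smaller amounts. KRT8 in 22RV1 stood at 1255, 1193, 1042 and 971.5 CPM in vector PBS, vector H2O2, PAGE4 PBS and PAGE4 H2O2 cells. The DU145 values in the same order were 740.3, 424, 989 and 504 CPM, so the lines overlapped in 1 DU145 library, PAGE4 cells with PBS (log2 fold change -0.82, SE 0.21, adjusted p = 0.00967). KRT18 was at 659, 937, 683 and 835 CPM in 22RV1 and at 521, 518, 644 and 561 CPM in DU145, without overlap (log2 fold change -0.46, SE 0.14, adjusted p = 0.0187). The KRT18 call was lost when either H2O2 pair was left out, with an adjusted p of 0.0826 without the vector pair and 0.0697 without the PAGE4 pair.

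KRT19, a type I keratin of simple epithelia that lacks most of the tail domain, did not pass between the lines. Its 22RV1 libraries were at 428, 216, 319 and 198.5 CPM in the order above and its DU145 libraries at 159, 124.5, 291 and 207 CPM (log2 fold change -0.57, SE 0.23, adjusted p = 0.064). It was called lower in DU145 with total counts (adjusted p = 0.0199), with DESeq2's Wald test (0.0478), without a count minimum (0.000159), with an additive fit without pair blocks (1.91e-08), without the PAGE4 PBS pair (0.0428) and without the PAGE4 H2O2 pair (0.0273). KRT15, a type I basal-cell keratin, overlapped between 22RV1 (0.793 to 2.12 CPM) and DU145 (0.585 to 3.36 CPM; adjusted p = 0.857). The remaining basal genes were at the limit of detection. KRT5 had 1 to 3 reads per 22RV1 library, 1 read in DU145 vector cells with PBS and 0 in the other 3 DU145 libraries, where a count of 0 allows up to 3 reads, or 0.111 to 0.121 CPM by library (counting error only). KRT17, a type I keratin induced in injured epithelia, had 0 to 6 reads in 22RV1 (0 to 0.155 CPM) and 5 to 16 in DU145 (0.201 to 0.593 CPM). Its CPM did not overlap between the lines, and KRT17 was called without a count minimum.

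**Figure D1:**
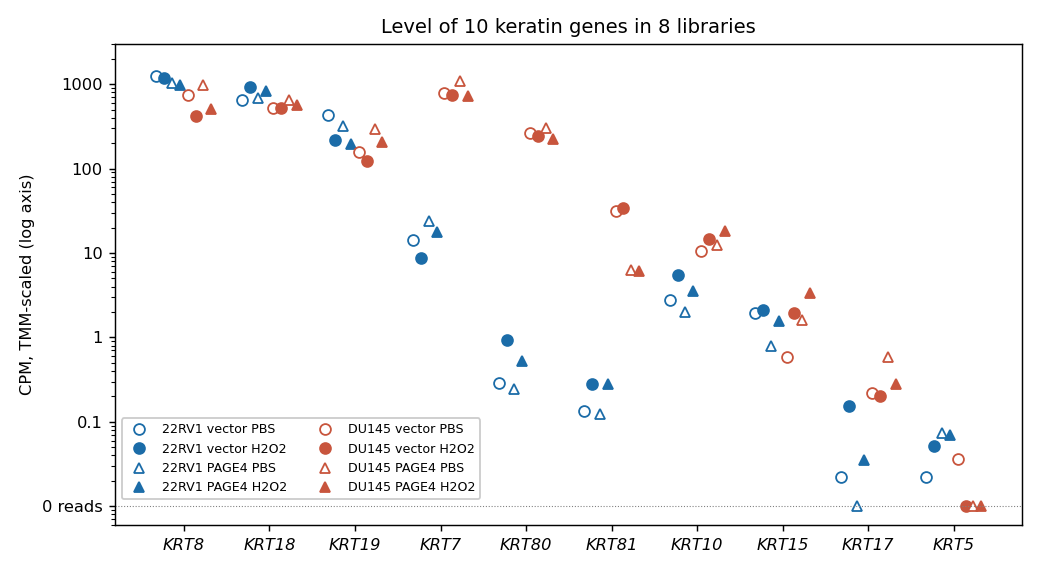
Level of each of the 10 keratins in the 8 libraries, as TMM-scaled CPM on a log axis, with 22RV1 in blue and DU145 in red, circles for vector cells, triangles for PAGE4 cells, open symbols for PBS and filled symbols for H2O2; libraries with 0 reads sit on the dotted line. KRT7, KRT80, KRT81 and KRT10 separate the lines, as do KRT17 at low counts and KRT18 by a smaller step. KRT8, KRT18 and KRT19 are high in both, and the 2 PAGE4 libraries of DU145 stand apart for KRT81.

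Genes that work with keratin filaments were read against the 29.9% of all genes called higher and the 33.1% called lower in DU145. These lists were chosen with earlier results of these data known. Some of their genes passed the count minimum only through the line where they were high. Examples are DSC3 (0.0420 CPM in 22RV1 and 12.2 CPM in DU145) and HOXB13 (140.8 and 0.0850 CPM). The counts therefore describe the lines and test nothing. Of 16 testable desmosome and hemidesmosome genes, 9 were higher and 4 lower in DU145, among them the hemidesmosomal integrin ITGB4 (log2 fold change 5.24, adjusted p = 5.91e-05). Of 12 keratin-binding and cross-linking genes, 5 were higher and 2 lower. Over both directions this share was no larger than among all genes, while the share called higher was above 29.9%. Of 11 other intermediate filament genes, 7 were higher and 2 lower, with VIM, the mesenchymal filament protein vimentin, at 5.19 (adjusted p = 4.5e-06). Of 18 epithelial transcription factor genes, 2 were higher and 12 lower, with GRHL2, a regulator of epithelial adhesion genes, at -7.33 (adjusted p = 4.3e-07).

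Levels of different genes were compared per kilobase of the canonical transcript (GENCODE 44). In 22RV1 the order was KRT8 (mean 625 CPM per kilobase, range 545 to 703), KRT18 (551, range 467 to 663), KRT19 (209, range 143 to 308) and KRT7 (9.90, range 5.31 to 14.6). KRT8 and KRT18 overlapped, and the steps to KRT19 and to KRT7 did not. In DU145 the order was KRT7 (514, range 443 to 669), KRT18 (397, range 366 to 455), KRT8 (373, range 238 to 555), KRT19 (141, range 89.6 to 210), KRT80 (66.7, range 58.2 to 78.8) and KRT81 (10.0, range 3.17 to 17.5). KRT7, KRT18 and KRT8 overlapped with their neighbours in that order, while KRT19 and KRT80 were each separate from the gene above. The order depended on the length used. Per kilobase of all annotated exons, KRT18 made up 36.7% to 53.9% of the keratin signal in 22RV1, above KRT8 at 28.0% to 31.1%, and KRT19 at 16.0% to 31.3% overlapped with KRT8. On that length KRT18 (31.0%) also stood above KRT7 (30.6%) in DU145 PAGE4 cells with H2O2.

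As a share of the keratin signal per kilobase, KRT8 made up 42.1% to 47.2% in 22RV1 and 19.1% to 28.2% in DU145. KRT7 made up 0.354% to 1.11% in 22RV1 and 32.9% to 37.1% in DU145. The ratio of type I to type II signal was 1.09 to 1.32 in 22RV1 and 0.497 to 0.707 in DU145, without overlap. With the length of all annotated exons in place of the canonical transcript, it was 2.15 to 2.46 and 0.639 to 0.911, so the order of the lines held while the level depended on the length used. The 10 genes together took 0.201% to 0.305% of all counts in a library, with no separation of the lines.

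**Figure D2:**
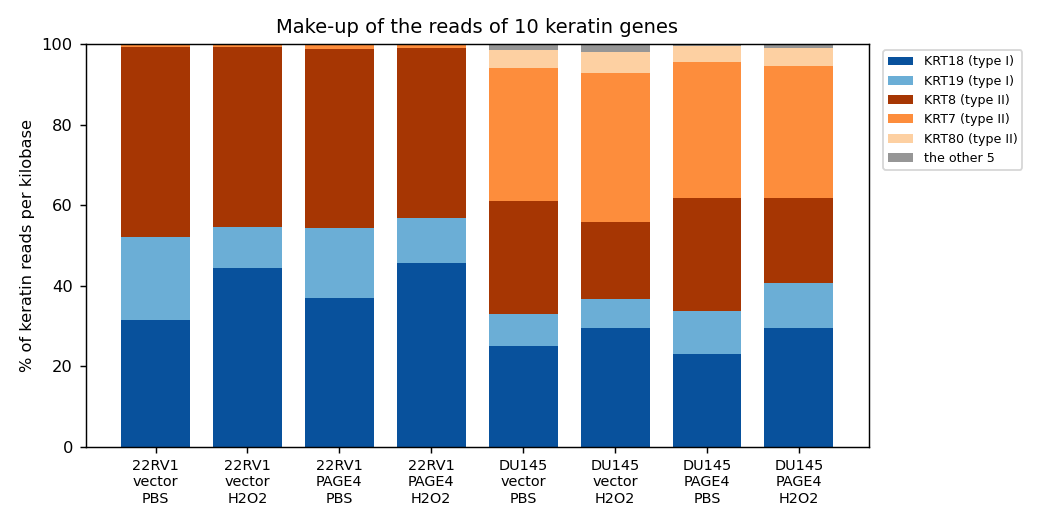
Share of each keratin in the summed signal of the 10 genes per kilobase of canonical transcript, in percent, for each of the 8 libraries, with type I keratins in blue, type II keratins in brown and orange, and the other 5 genes in grey. KRT7 and KRT80 take a visible share in the 4 DU145 libraries, and the KRT18 share is larger with H2O2 than with PBS in all 4 pairs.

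H2O2 treatment moved individual keratins in different directions. Over all 4 pairs, KRT10 rose (log2 fold change 0.70, SE 0.16, adjusted p = 0.0224) and KRT19 (-0.63, SE 0.12, adjusted p = 0.00983) and KRT7 (-0.45, SE 0.12, adjusted p = 0.0335) fell. Of all genes tested, 10.3% rose and 12.5% fell. The KRT19 call was kept in every alternative setting. The KRT10 call was lost without the 22RV1 vector pair (adjusted p = 0.0666), the DU145 vector pair (0.0649) or the DU145 PAGE4 pair (0.072), and the KRT7 call without the 22RV1 vector pair (0.164), the 22RV1 PAGE4 pair (0.0973) or the DU145 PAGE4 pair (0.117) and with total counts in place of TMM (0.0589).

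In 22RV1 cells, 3 of the 8 tested keratins rose with H2O2 (KRT10, KRT18 and KRT80) and 2 fell (KRT7 and KRT19), where 15% of all genes rose and 16.7% fell. In DU145 cells, 2 rose (KRT10 and KRT15) and 4 fell (KRT7, KRT8, KRT19 and KRT80), where 19% of all genes rose and 22.4% fell. The median log2 fold change of the 8 keratins was 0.44 in 22RV1 and -0.19 in DU145, against -0.01 and -0.04 over all genes. These effects rest on 2 pairs per line, and in DU145 the count dropped to 1, KRT8, when the PAGE4 pair was left out.

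The luminal pair KRT8 and KRT18 responded differently in the lines. KRT8 fell in DU145 (log2 fold change -0.89, SE 0.07, adjusted p = 5.07e-09) and did not pass in 22RV1 (-0.09, SE 0.07, adjusted p = 0.375). KRT18 rose in 22RV1 (0.40, SE 0.08, adjusted p = 0.00038) and did not pass in DU145 (-0.10, SE 0.08, adjusted p = 0.297). The difference between the lines was called for both genes, at -0.80 (SE 0.10, adjusted p = 7.3e-06) for KRT8 and -0.50 (SE 0.11, adjusted p = 0.00216) for KRT18, although the KRT18 difference was lost without the DU145 PAGE4 pair (adjusted p = 0.0658). In both lines the balance of the luminal pair thus moved the same way. The KRT18 to KRT8 ratio per kilobase went from 0.663 to 0.991 in 22RV1 vector cells, from 0.827 to 1.08 in 22RV1 PAGE4 cells, from 0.888 to 1.54 in DU145 vector cells and from 0.821 to 1.40 in DU145 PAGE4 cells. It was higher with H2O2 in 4 of 4 pairs, and no H2O2 library overlapped with a PBS library.

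These neighbouring genes lie on opposite strands. The annotated exons of KRT8 and KRT18 overlap by 525 bases, 7.63% of the exonic length of KRT8 and 17.1% of that of KRT18. Whether the counting used strand is not given in the sources used here, so reads in that overlap cannot be assigned to one of the genes. Reads at 50 annotated KRT8 pseudogenes came to 1.22% to 4.08% of the KRT8 count and those at 67 KRT18 pseudogenes to 0.486% to 1.23% of the KRT18 count, and adding them to their parent changed no count of keratins called.

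KRT19 fell in both lines, more in 22RV1 (-0.84, SE 0.08, adjusted p = 1.96e-07) than in DU145 (-0.42, SE 0.08, adjusted p = 0.000391). The difference of 0.41 (SE 0.12, adjusted p = 0.0174) was lost without the 22RV1 vector pair (adjusted p = 0.064), the DU145 vector pair (0.174) or the DU145 PAGE4 pair (0.0545). Without the DU145 PAGE4 pair, the fall in DU145 itself was at an adjusted p of 0.0504. KRT7 fell in 22RV1 (-0.56, SE 0.12, adjusted p = 0.00083). Its fall in DU145 (-0.33, SE 0.10, adjusted p = 0.00884) came from PAGE4 cells, with a log2 ratio of -0.60 (95% counting interval -0.62 to -0.57), whereas vector cells gave -0.07 (-0.10 to -0.04). The H2O2 libraries stood at 750.1 CPM (vector) and 719 CPM (PAGE4), and the PBS libraries at 786 and 1087 CPM. The larger fall thus rests on 1 library, PAGE4 cells with PBS. That library was also the highest of DU145 for KRT8, KRT18, KRT19 and KRT80. Without the PAGE4 pair the adjusted p for KRT7 in DU145 was 0.756.

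Among the less abundant genes, KRT80 rose in 22RV1 from 13 to 36 reads in vector cells and from 10 to 15 in PAGE4 cells (log2 fold change 1.45, SE 0.33, adjusted p = 0.00227). This call rested on the vector pair, without which the adjusted p was 0.193. In DU145, where KRT80 is abundant, it fell by 0.27 on the log2 scale (SE 0.09, adjusted p = 0.0192), and without the PAGE4 pair the value was -0.11 with an adjusted p of 0.643. The call was also lost with total counts (adjusted p = 0.0703) and with DESeq2's Wald test (0.0749). The difference between the lines was -1.72 (SE 0.35, adjusted p = 0.00132), a call that was lost without the 22RV1 vector pair (0.0872).

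KRT10 rose in 22RV1 (0.91, SE 0.21, adjusted p = 0.00186) and in DU145 (0.51, SE 0.18, adjusted p = 0.0276), and was higher with H2O2 in 4 of 4 pairs. In DU145 this call was lost without either DU145 pair (adjusted p = 0.191 and 0.303) and with DESeq2's Wald test (0.0845). KRT15 rose in DU145 from 16 to 48 reads in vector cells and from 43 to 84 in PAGE4 cells (log2 fold change 1.35, SE 0.40, adjusted p = 0.00942), and the call was lost without either pair (0.15 without the vector pair and 0.0541 without the PAGE4 pair). In 22RV1 it went from 88 to 82 reads and from 32 to 44 reads (0.49, SE 0.37, adjusted p = 0.355). KRT81 gave 0.04 in DU145 (SE 0.18, adjusted p = 0.887).

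**Figure D3:**
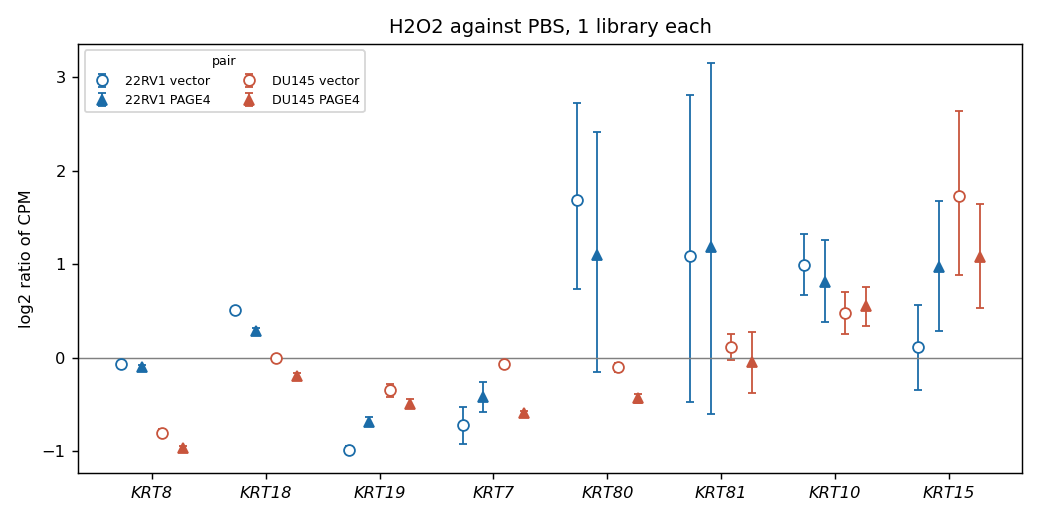
Log2 ratio of CPM with H2O2 against PBS for the 8 tested keratins in each of the 4 pairs of libraries, with 22RV1 in blue and DU145 in red, open circles for vector cells and filled triangles for PAGE4 cells; bars are 95% Clopper-Pearson intervals and cover counting error only. KRT8 is below 0 by more in DU145 than in 22RV1, KRT18 is above 0 in both 22RV1 pairs only, KRT10 is above 0 in all 4 pairs and KRT19 below 0 in all 4.

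Partners of the keratin filament were examined as a frame for these shifts. Of 16 testable desmosome and hemidesmosome genes, 3 rose and 3 fell with H2O2 in 22RV1, and 4 rose and 7 fell in DU145. Among all genes, 15% rose and 16.7% fell in 22RV1 and 19% and 22.4% in DU145, and the counts of all lists below are read against these shares. Since the lists were chosen with earlier results of these data known, their counts are a description only. JUP, the plaque protein plakoglobin, fell by 1.15 (SE 0.08, adjusted p = 8.22e-10) and PKP4, a plakophilin, by 1.22 (SE 0.10, adjusted p = 1.05e-08) on the log2 scale in DU145, where KRT8 also fell. DSC2, a desmosomal cadherin, rose in 22RV1 (1.11, SE 0.12, adjusted p = 8.69e-07). ITGB4 rose in 22RV1 (1.09, adjusted p = 0.00378) and fell in DU145 (-1.08, adjusted p = 6.31e-06), a difference that was called (-2.16, adjusted p = 3.68e-05).

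Of 12 keratin-binding and cross-linking genes, 2 rose and 1 fell in 22RV1, over both directions a smaller share than among all genes. In DU145, 6 rose and 5 fell. Epiplakin (EPPK1), which binds keratin filaments, rose in 22RV1 (1.45, adjusted p = 2.87e-07) and fell in DU145 (-0.76, adjusted p = 0.0011), with a called difference (-2.21, adjusted p = 6.83e-07). SFN, the 14-3-3 sigma protein, rose in DU145 (1.35, adjusted p = 3.19e-11) and stood at -0.13 in 22RV1 (adjusted p = 0.176). The cornified envelope protein periplakin (PPL) fell in DU145 (-1.59, adjusted p = 4.1e-08).

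Of 18 testable epithelial transcription factor genes, 4 rose and 5 fell in 22RV1, and 5 rose and 3 fell in DU145, where the share called was near that of all genes. GRHL3 (3.21, adjusted p = 2.56e-06) and ELF3 (1.84, adjusted p = 9.69e-11), regulators of epithelial differentiation, rose in 22RV1. EHF fell (-3.16, adjusted p = 3.7e-07) and KLF4 rose (1.45, adjusted p = 2.4e-08) in DU145. All 9 testable luminal markers fell with H2O2 in 22RV1, with a median of -1.42, while KRT8 stood at -0.09 and KRT18 rose; the part of these markers in the keratin changes was not tested. Of 11 other intermediate filament genes, 2 rose and 4 fell in 22RV1, led by the lamin LMNB1 (-1.42, adjusted p = 9.69e-11), and 1 rose and 4 fell in DU145.

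PAGE4 overexpression gave few calls, and in DU145 the hair keratin KRT81 was lower with it. Over all 4 pairs, KRT81 was the 1 keratin called (log2 fold change -2.09, SE 0.30, adjusted p = 0.0232), where 0.189% of all genes were called in either direction. At an unadjusted p under 0.05, 2 of the 8 keratins passed. Within the lines 5 passed in 22RV1 and 6 in DU145, and 7 passed for the difference between the lines. The share of all genes at that limit is not given here, so these counts have no background. The KRT81 call was lost with a mean count of at least 50 (adjusted p = 0.0531), with DESeq2's Wald test (0.575) and without either DU145 pair (0.204 without the PBS pair and 0.234 without the H2O2 pair, where KRT7 was called in its place). In DU145 cells alone, 2 keratins were higher with PAGE4 (KRT8 and KRT19) and 1 was lower (KRT81), where 0.233% of all genes were called higher and 0.0944% lower. In 22RV1 cells, 1 was higher (KRT7) and 1 lower (KRT8), where 2.59% of all genes were called higher and 2.74% lower.

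KRT81 fell in DU145 from 31.2 to 6.33 CPM with PBS and from 33.7 to 6.11 CPM with H2O2. The log2 ratios were -2.30 (95% counting interval -2.54 to -2.06) and -2.46 (-2.72 to -2.21), and the fit over both pairs gave -2.38 (SE 0.18, adjusted p = 3.41e-07). This call was kept in every alternative setting, with an adjusted p of at most 0.00244. In 22RV1 the gene went from 6 to 5 reads with PBS and from 11 to 8 with H2O2, too few for a ratio to be resolved. The difference between the lines (-2.33, SE 0.58, adjusted p = 0.0323) was lost without the 22RV1 H2O2 pair (0.302), the DU145 PBS pair (0.0925) or the DU145 H2O2 pair (0.135).

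KRT86, the close relative of KRT81, did not follow it. It had 106 and 107 reads in DU145 vector cells with PBS and H2O2 and 144 and 92 reads in PAGE4 cells, log2 ratios of 0.46 (0.09 to 0.84) and -0.23 (-0.65 to 0.19), and was at 0.12 in the fit (SE 0.33, adjusted p = 0.987). Summed over both genes, reads went from 959 to 315 with PBS and from 945 to 245 with H2O2, log2 ratios of -1.59 and -1.96. The fall thus remained in the summed counts, at a smaller size. How reads that match both genes were counted is not given in the sources used here. The sum holds only reads that were counted at either gene.

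**Figure D4:**
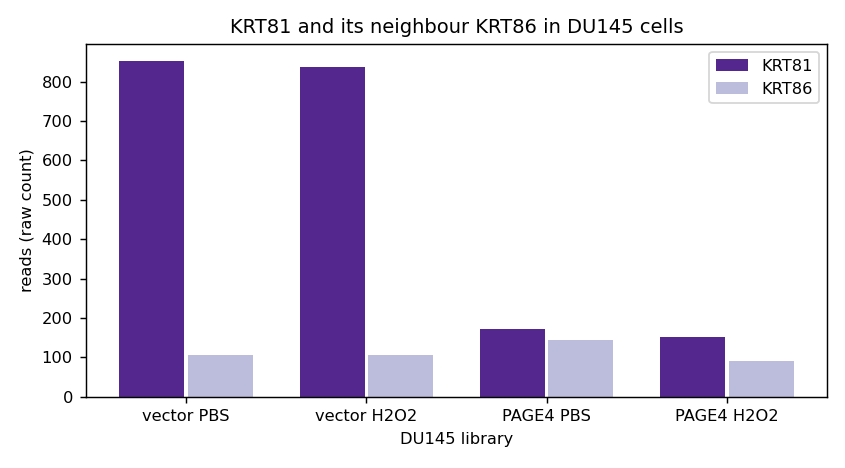
Raw read counts of KRT81 (dark) and KRT86 (light) in the 4 DU145 libraries, with 1 library per bar. KRT81 is at 853 and 838 reads in vector cells and at 171 and 153 in PAGE4 cells, while KRT86 stays between 92 and 144.

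The effect of PAGE4 on KRT19 and KRT8 differed between the lines. KRT19 rose in DU145 (0.81, SE 0.08, adjusted p = 5.23e-05), from 159 to 291 CPM with PBS and from 124.5 to 207 CPM with H2O2, a call kept in every alternative setting. In 22RV1 it stood at -0.27 (SE 0.08, adjusted p = 0.0631). Without a count minimum the quasi-likelihood test called it lower there (-0.28, SE 0.08, adjusted p = 0.012). Without the 22RV1 H2O2 pair the 22RV1 estimate was -0.41. The difference between the lines was 1.08 (SE 0.12, adjusted p = 9.96e-06). KRT8 rose in DU145 (0.33, SE 0.07, adjusted p = 0.0387) and fell in 22RV1 (-0.28, SE 0.07, adjusted p = 0.0185), a difference of 0.62 (SE 0.10, adjusted p = 0.00102). Its rise in DU145 was lost without the PBS pair (adjusted p = 1), without the H2O2 pair (0.235) and with a mean count of at least 50 (adjusted p = 0.0853), its fall in 22RV1 without the H2O2 pair (0.14), and the difference without the DU145 PBS pair (0.057).

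KRT7 rose with PAGE4 in 22RV1 (0.87, SE 0.12, adjusted p = 4.62e-05), from 640 to 959 reads with PBS and from 334 to 503 reads with H2O2 in libraries of unequal depth. The log2 ratios of CPM were 0.74 (0.59 to 0.88) and 1.04 (0.84 to 1.24), and the call was kept in every alternative setting. In DU145 the corresponding log2 ratios were 0.47 (0.44 to 0.49) with PBS and -0.06 (-0.09 to -0.03) with H2O2, and the fit gave 0.20 (SE 0.10, adjusted p = 0.612). The DU145 ratio with PBS rests on the same high PAGE4 library as the fall of KRT7 with H2O2 in DU145 PAGE4 cells. The lines differed by -0.67 (SE 0.15, adjusted p = 0.0182), and this was lost without the 22RV1 H2O2 pair (0.0618) or the DU145 H2O2 pair (0.34). In all, 4 of the 8 keratins were called for a different effect of PAGE4 in the lines and 4 for a different H2O2 response, where 2.49% and 19.1% of all genes were called. The keratins were chosen with earlier results of these data known, so these counts are a description and not a test. KRT81, called for the PAGE4 difference, passed the count minimum only through DU145.

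KRT18, KRT10, KRT15 and KRT80 did not pass for PAGE4 in either line, with adjusted p from 0.133 to 0.939. Their estimates ranged from -0.86 (KRT15, SE 0.38) to -0.06 (KRT18, SE 0.08) in 22RV1 and from 0.06 (KRT80, SE 0.09) to 1.06 (KRT15, SE 0.40) in DU145. Some had an unadjusted p under 0.05 in the quasi-likelihood test. These were KRT10 (0.0123) and KRT15 (0.0326) in 22RV1 and KRT15 (0.0142) and KRT18 (0.0117) in DU145. With PAGE4 in 22RV1, 1 desmosome and hemidesmosome gene rose and 1 fell, 1 keratin-binding gene fell, 3 other intermediate filament genes rose and 1 fell, and 1 transcription factor gene rose (SOX9, 0.90) and 2 fell, where 2.59% of all genes rose and 2.74% fell. DESeq2's Wald test called 1, 0, 3 and 2 genes of these lists, and DSG2, EVPL, VIM and TFAP2C were not among them. In DU145, none of 16 desmosome and hemidesmosome, 12 keratin-binding or 11 other intermediate filament genes was called, and of 18 transcription factor genes ESRP1, listed there for its part in epithelial splicing, rose (0.59, adjusted p = 0.00357). In DU145 there were 4, 4 and 3 genes of the first 3 lists at an unadjusted p under 0.05, and DESeq2's Wald test called 0 of them. The share of all genes at that unadjusted limit is not given here, so these counts have no background either.

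**Figure D5:**
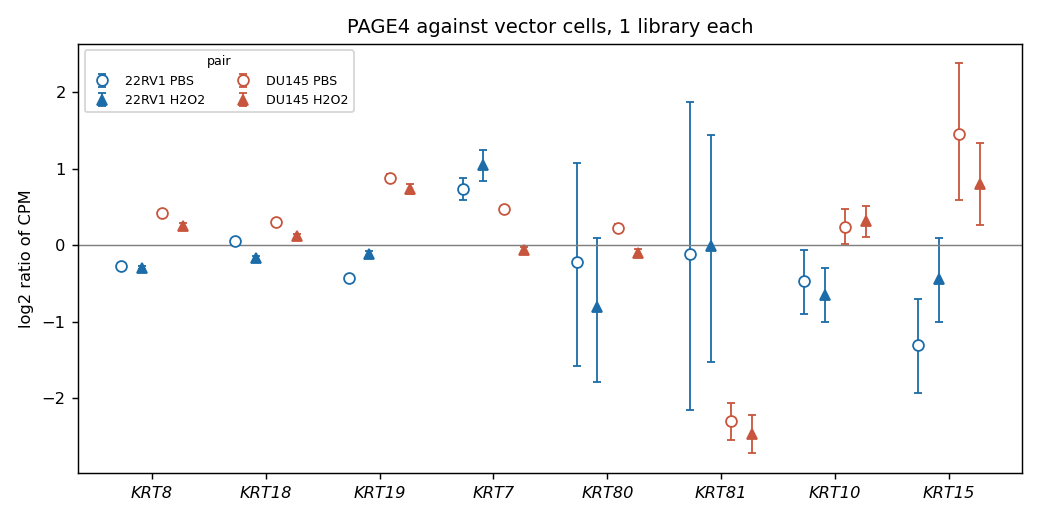
Log2 ratio of CPM in PAGE4 against vector cells for the 8 tested keratins in each of the 4 pairs of libraries, with 22RV1 in blue and DU145 in red, open circles for PBS and filled triangles for H2O2; bars are 95% Clopper-Pearson intervals and cover counting error only. KRT81 is far below 0 in both DU145 pairs, KRT19 and KRT8 are above 0 in DU145 and below 0 in 22RV1, and KRT7 is above 0 in both 22RV1 pairs.

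The other 45 keratin genes were largely silent in both lines. Of these, 4 had no reads at all, 33 (these 4 included) had at most 3 reads in any library, and 2 passed the count minimum, KRT86 and KRT4. KRT86 averaged 0.198 CPM in 22RV1 and 4.30 CPM in DU145, and with 3 to 13 reads per 22RV1 library it passed the count minimum only through DU145. KRT4, a type II keratin of stratified mucosa that was singled out after its values were seen, had 0 to 4 reads in 22RV1 and 92, 12, 35 and 37 reads in DU145 vector PBS, vector H2O2, PAGE4 PBS and PAGE4 H2O2 cells.

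Genes with the most similar pattern were sought by Pearson correlation of log2(CPM + 0.5) over the 8 libraries after centring within each line, among 8772 genes (8773 for KRT81) at 10 CPM or more in each line. For KRT8 these were SLC22A18 (r = 0.993), IRF3 (0.990) and ACTN4 (0.987), and for KRT18 TINAGL1 (0.965), IRS1 (0.961) and PSMD5 (0.956). For KRT81, the tested keratin that varied most within a line, they were SLC36A1 (0.944), CHCHD7 (0.909) and ADAR (0.896). In 22RV1, KRT81 was at 0.124 to 0.284 CPM, below the 0.5 CPM added, so its pattern rests mostly on the DU145 libraries. The 8 points share their libraries and depth, and the values are a description only.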

How the data were processed

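Total RNA of 8 cultures was sequenced. Each line has 1 deposited table of unnormalized read counts by gene, which the authors made with HISAT2 2.1.0 (alignment to GRCh38) and featureCounts 1.6.0 (counting). The annotation release and the strand setting are not given in the sources used here. Total counts ranged from 25482984 to 43310401, and intervals and floors (3 counts) cover counting error only.

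The keratins and all other gene lists were chosen with earlier results of these data known. Counts of both tables were joined by symbol and fitted with edgeR 4.0.16 in R 4.3.3 (TMM, quasi-likelihood test, adjusted p limit 0.05) for the 20136 genes with a mean count of at least 10. The line was tested with the 4 conditions as blocks, and H2O2 and PAGE4 with the 4 pairs of libraries as blocks. Effects within a line, and their difference, came from a fit with an interaction with line. The study ran DESeq2 and then took genes by a fold change cutoff. With 1 library per condition this gives no replicate error. Pair ratios have 95% Clopper-Pearson intervals, and a pseudocount of 0.5 CPM was used for the pattern correlations and in sensitivity comparisons. Lengths, coordinates and the comparison of coding sequences come from GENCODE 44 on GRCh38. In simulated counts, 200 of 200 genes changed 4-fold among 20136 were recovered for each of the line, H2O2 and PAGE4 comparisons. False calls numbered 8, 9 and 8. The changed genes had a mean of at least 50 reads, the dispersion was fixed, and every pair had the same effect. Smaller changes, lower counts and effects that differ between pairs or lines were not simulated.

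Named genes are the 10 keratins, other keratins with a mean of at least 2 CPM in either line, and at most 2 called genes per direction of each partner list and comparison. SFN is also given in 22RV1, and KRT4 and KRT86 as other tested keratins. The 3 genes most similar in pattern to KRT8, KRT18 and the most variable tested keratin are named too. Alternatives were DESeq2 1.42.0 size factors, unscaled totals, a count minimum of 50 or none, DESeq2's Wald test, pseudogene reads added, an additive fit, each pair left out, pseudocounts of 0.1 and 1 CPM, and raw counts in shares. The addition of KRT86 to KRT81 and the length of all annotated exons were chosen after seeing the data. Some items are not reported here.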

Additional observations from a re-analysis of the deposited data

Results flagged for a closer look

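The response to H2O2 differed between the lines for 4 keratins by a test of the difference itself (DU145 minus 22RV1, log2 scale, edgeR's quasi-likelihood test). The differences were -0.80 for KRT8, -0.50 for KRT18, 0.41 for KRT19 and -1.72 for KRT80. Of all genes tested, 19.1% were called for this difference. The KRT8 call was kept in every alternative setting, while those for KRT18, KRT19 and KRT80 were each lost when certain pairs were left out. For KRT80 the 22RV1 side rests on 10 to 36 reads per library.

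The effect of PAGE4 differed between the lines for 4 keratins by the same test, at -0.67 for KRT7, 0.62 for KRT8, 1.08 for KRT19 and -2.33 for KRT81. Of all genes tested, 2.49% were called for it. The KRT19 call was kept in every alternative setting, while those for KRT7, KRT8 and KRT81 were each lost when certain pairs were left out. For KRT81 the 22RV1 side rests on 5 to 11 reads per library. These comparisons share the 8 libraries with those of H2O2, and no group holds enough libraries for a test of single outlying samples.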

How the results depend on the processing

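No paired analysis by replicate number was possible because each condition has 1 library; pairs of conditions are blocks in the fits reported. The number of keratins called with H2O2 (3) was 5 without a count minimum, 5 with DESeq2's Wald test, 7 with the additive fit and 1 to 2 with each pair left out. The number called with PAGE4 (1) was 3 without a count minimum, 3 with the additive fit, 0 with a mean count of at least 50, 0 with DESeq2's Wald test (2 at an unadjusted p under 0.05 in both) and 0 to 1 with each pair left out. With each pair left out, the counts were 2 to 5 for the difference in H2O2 response, 2 to 6 for the difference in PAGE4 effect and 1 to 6 for H2O2 in DU145. A left-out pair can leave 1 pair in a line, which is assumed to vary like the others.

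With total counts, the signs turned for KRT15 between the lines (-0.10) and KRT8 with H2O2 in 22RV1 (0.0298). Neither was called. With each pair left out, 12 uncalled estimates changed sign. Their ranges were -0.25 to 0.65 for KRT15 between the lines, -0.11 to 0.42 for KRT80 with H2O2, -0.0494 to 0.11 for KRT81 with H2O2 in DU145 and -0.0289 to 0.50 for KRT7 in the difference of the H2O2 responses. With PAGE4 over all pairs they were -0.27 to 0.0804 for KRT10, -0.30 to 0.54 for KRT15, -0.11 to 0.14 for KRT8 and -0.20 to 0.0583 for KRT80. With PAGE4 in 22RV1 they were -0.14 to 0.0630 for KRT18 and -0.10 to 0.0120 for KRT81, and in DU145 -0.0590 to 0.47 for KRT7 and -0.10 to 0.23 for KRT80. The cause was not tested. Of all estimates of single keratins, 706 kept direction and side of the threshold, 39 lost a call, 27 gained one and 20 changed sign. Shares and ratios within a library depend on the length used, and low counts limit KRT5, KRT17 and, in 22RV1, KRT80 and KRT81.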
